A study of Mus musculus with 5 samples.

Results

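The 9 complement genes described here are C1qa, C1qb, C1qc, C1ra, C1s1, C2, C3, C4b and Serping1. They were picked by symbol from the gene list of the matrices and are 9 of 31053 measured genes, each found under 1 identifier. UMI counts (unique molecular identifiers, which mark single captured transcripts) came from cells of the ventral skin, sorted against debris, dead cells and aggregates and run on 10x 3′ chemistry. The C57BL/6J mice were taken at postnatal day 28. There were 2 WT libraries (wild type) and 3 Ikkb_cKO libraries (Prx1Cre+Ikkbf/f), each made from a pool of 2 mice. In Ikkb_cKO mice a Cre driven by Prrx1 regulatory sequence, active in limb and trunk mesenchyme and so in skin fibroblasts, deletes the floxed alleles of Ikkb, the gene of a kinase that activates NF-kB. The labels do not say whether WT mice carried the Cre or a floxed allele, nor whether different libraries of a group came from separate litters. By its title the study asked about NF-kB in Prx1+ fibroblasts and atopic dermatitis.

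Complement is a cascade of plasma proteins that is also made locally in tissues. In the classical pathway C1q, a recognition molecule built of the chains C1qa, C1qb and C1qc, binds antibody or damaged surfaces and carries the proteases C1r and C1s. C1s cleaves C4 and C2, which form the convertase that cleaves C3, the component on which all pathways meet. Serping1 encodes C1 inhibitor, which inactivates C1r and C1s. Most complement proteins of the plasma come from the liver, while C1q is known to be made mainly by macrophages and dendritic cells, and fibroblasts are known to make C1r, C1s, C3 and C1 inhibitor.

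The libraries differed in size and depth. The matrices held between 945 and 3393 barcodes and between 2163166 and 16773096 UMIs each, and 10388 of 11084 barcodes were kept. The median kept cell held 3586 or 4026 UMIs in the WT libraries, and 1607, 1883 or 2805 in Ikkb_cKO libraries 1, 2 or 3. Pairs of libraries shared 0 to 14 barcodes. The shares of cells per cluster differed little beyond counting noise between the WT libraries (chi-square per degree of freedom 1.03) and between Ikkb_cKO libraries 1 and 2 (1.49). Ikkb_cKO library 3 stood apart from Ikkb_cKO libraries 1 and 2 (31.7 and 28.9). Cells were clustered without the complement genes and the clusters were named from marker genes, so a class is called fibroblast-like, myeloid-like and so on. The 15 fibroblast markers together made 53762 to 77504 CPM (UMIs scaled to a common total) in fibroblast-like cells of the 5 libraries, and the 28 myeloid markers 61155 to 87557 in myeloid-like cells.

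In the GRCm38 annotation the 3 C1q genes lie next to each other on the minus strand of chromosome 4, within 18675 bases. C1qb is at 136880129 to 136886187, C1qc at 136889804 to 136893065 and C1qa at 136895917 to 136898803. C1ra (chromosome 6, 124512405 to 124523443, plus strand) and C1s1 (124530345 to 124542359, minus strand) are 6901 bases apart. C4b (34728380 to 34743882), C2 (34862604 to 34898265) and C3 (57203970 to 57228136) lie on the minus strand of chromosome 17, and Serping1 (84765387 to 84775444) on the minus strand of chromosome 2. C2 overlaps Gm20547 on its own strand and Zbtb12 on the other, and C1s1 overlaps an antisense gene. The effect of these overlaps on the counts was not tested. C4b has a near-identical copy, C4a, which is not a row of the matrices, so counts of C4b are uncertain as to the copy.

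The promoters of 5 of the 9 genes were matched in the RefSeq table (GRCm38.p6). The windows of C1qb and C1qc, which were detected together in macrophages, and of C3, a gene known to respond to NF-kB and C/EBP factors, are shown as the 250 bases before the start site, 5′ to 3′ on the minus strand. The windows are chr4:136886201-136886450, chr4:136892915-136893164 and chr17:57228137-57228386. Part of the C1qc window lies inside the gene as given above, which reaches 136893065, so positions in it hold for the RefSeq start only. Capitals mark GAGGAA on either strand (the PU.1 core) in C1qb and C1qc, and TTNNGNAA (C/EBP) and GGGNNNNNCC (kappa B) on either strand in C3. Other matches of these motifs in C1qb and C1qc are left in small letters.
C1qb: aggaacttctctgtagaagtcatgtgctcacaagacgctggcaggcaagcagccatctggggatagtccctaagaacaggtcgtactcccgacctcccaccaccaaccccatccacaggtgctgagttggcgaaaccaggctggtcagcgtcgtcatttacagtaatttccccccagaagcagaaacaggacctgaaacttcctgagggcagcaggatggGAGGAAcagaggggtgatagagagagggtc
C1qc: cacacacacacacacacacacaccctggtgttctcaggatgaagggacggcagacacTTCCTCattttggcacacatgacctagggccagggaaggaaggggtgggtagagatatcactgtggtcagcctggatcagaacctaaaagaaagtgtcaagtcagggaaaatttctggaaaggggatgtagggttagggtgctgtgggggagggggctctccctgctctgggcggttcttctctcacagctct
C3: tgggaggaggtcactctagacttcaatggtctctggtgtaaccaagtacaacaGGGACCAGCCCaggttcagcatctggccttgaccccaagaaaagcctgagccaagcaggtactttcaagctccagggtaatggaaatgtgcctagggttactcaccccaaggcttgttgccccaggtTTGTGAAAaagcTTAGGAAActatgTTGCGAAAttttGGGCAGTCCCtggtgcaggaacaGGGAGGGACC
GAGGAA stood 30 to 25 bases before the start of C1qb, and on the other strand 193 to 188 bases before the start of C1qc. In the window of C3, TTNNGNAA matched in 3 places between 70 and 38 bases before the start, and GGGNNNNNCC matched in 4, of which 2 overlap each other on opposite strands and the last ends at the base before the start. GGGNNNNNCC also matched in C1qb, between 191 and 181 bases before the start, and in C1qc, between 41 and 31. TTNNGNAA matched in C1qc 81 to 74 bases before the start, and both motifs matched in C1s1, whose window is not shown. Neither motif is therefore particular to C3. The motifs are short. Over 32851 promoter windows, 23.25% held GAGGAA, 36.85% held TTNNGNAA and 45.8% held GGGNNNNNCC, so a match describes the letters and not a bound site.

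The members fell into separate cellular sources. Nearly all C1q UMIs came from myeloid-like cells: in WT these cells were 26.9% of cells and held 99.4% of the UMIs of C1qa, 99.3% of C1qb and 99.4% of C1qc (means of 2 libraries). C1ra, C1s1, C3 and Serping1 came from fibroblast-like cells, which were 58.8% of WT cells and held 98.5%, 97.6%, 99.1% and 97.9% of their UMIs. C2 and C4b were divided: fibroblast-like cells held 84.5% of the WT UMIs of C2 and 69.0% of those of C4b, and myeloid-like cells held 10.8% and 30.4%. In Ikkb_cKO, where myeloid-like cells were 18.2% ± 4.95 of cells (SD, n = 3), they held 6.82% ± 5.83 of the UMIs of C4b and 3.08% ± 3.32 of those of C2. Classes were defined from the same cells, so these levels are a description with no test between classes.

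**Figure D1:**
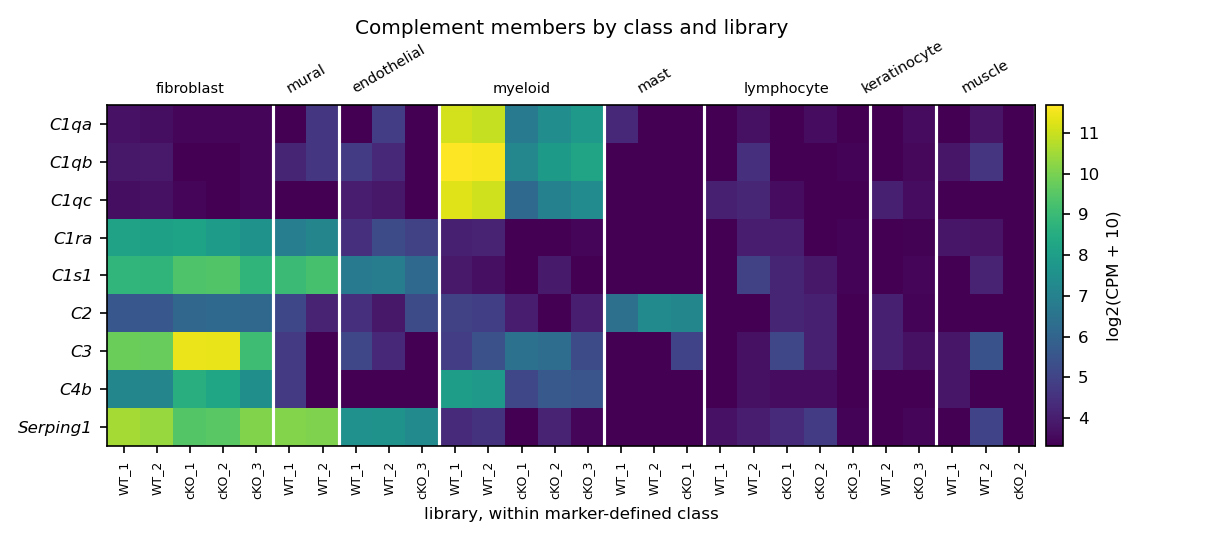
Plain CPM of the 9 genes as log2(CPM + 10), the colour scale, in each marker-defined class (groups of columns) and library (columns), for classes with at least 20 cells in that library. The C1q rows are bright in the myeloid columns, and the C1ra, C1s1, C3 and Serping1 rows in the fibroblast columns.

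On the scale of plain CPM, WT myeloid-like cells had 2064 ± 151 (SD, n = 2) of C1qa, 3185 ± 114 of C1qb and 2307 ± 211 of C1qc, against 2.86, 4.63 and 2.71 in WT fibroblast-like cells. WT fibroblast-like cells had 264.7 ± 7.9 CPM of C1ra and 438.8 ± 9.0 of C1s1, the paired proteases of C1. They had 859.7 ± 31.0 CPM of C3 and 1411 ± 93 of Serping1. Mural-like cells, which surround vessels, shared part of this set and not C3. In WT they had 119 ± 15 CPM of C1ra, 549 ± 65 of C1s1 and 1083 ± 21 of Serping1, but 8.38 ± 11.86 of C3. Endothelial-like cells had 102 ± 7 CPM of C1s1 and 179 ± 4 of Serping1 in WT. From high to low the WT order of Serping1 was fibroblast-like, mural-like and endothelial-like, and the ranges of the libraries did not overlap. For C1s1, mural-like cells (503 and 595) were above fibroblast-like cells.

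C2, the protease that joins C4 in the convertase, was also found in mast-like cells. WT mast-like cells had 74.2 and 148 CPM of C2 in libraries 1 and 2, from 25 UMIs in all. Ikkb_cKO libraries 1, 2 and 3 had 132 (6 UMIs in 24 cells), 0 (8 cells) and 78.0 (3 UMIs in 18 cells). The other members had at most 1 UMI per genotype in mast-like cells. Lymphocyte-like cells had WT means between 0 and 10.3 CPM for all 9 members, and none of the members passed the filter on low counts there, so no member was tested in that class.

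The share of fibroblast-like cells with at least 1 UMI fell when cells were thinned. In WT it was 89.95% for Serping1, 79.1% for C1s1, 66.0% for C1ra and 59.2% for C3. With each cell thinned to 1000 UMIs, which left out 168 of 3634 WT and 384 of 1861 Ikkb_cKO cells as too shallow, the WT shares were 66.1%, 36.8%, 24.9% and 42.1%. The thinned Ikkb_cKO shares were 48.4% ± 6.0 for Serping1, 41.4% ± 6.9 for C1s1 and 19.9% ± 3.5 for C1ra (SD, n = 3). For C3 they were 81.1%, 78.0% and 27.8% in libraries 1, 2 and 3, the first 2 above and the last below both WT libraries. In lymphocyte-like cells, which should lack these transcripts, the mean thinned share of a genotype was at most 0.864% for these genes. The highest share in a single library was 1.86%, for Serping1 in Ikkb_cKO library 2. Median UMIs per cell averaged 5059 in WT and 1913 in Ikkb_cKO fibroblast-like cells, and 2184 and 2090 in lymphocyte-like cells.

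C1q was highest in 1 cluster of macrophages. Cluster 9 was named resident macrophage-like from markers such as Folr2 and Gas6, with no complement gene among them, and held 429, 436, 9, 21 and 110 cells in WT libraries 1 and 2 and Ikkb_cKO libraries 1, 2 and 3. Its C1qa level was 4869 and 4601 CPM in WT and 2028, 2336 and 2137 in Ikkb_cKO. The WT libraries lay above all 3 Ikkb_cKO libraries, of which the first rests on 9 cells. C1qb was at 6731 ± 50 CPM in WT (SD, n = 2) and 2060 ± 327 in Ikkb_cKO libraries 2 and 3, and C1qc at 5298 ± 292 and 1561 ± 16. The 9 cells of Ikkb_cKO library 1 had 3549 CPM of C1qb and 1521 of C1qc. The fit needed 20 cells in every library, so resident macrophage-like cells were not tested. Their median UMI count averaged 2021 in WT and 928 in Ikkb_cKO libraries 2 and 3.

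Monocyte-derived macrophage-like cells (clusters 10 and 24, with Lyz1, Ear2, Ly6c2 and Plac8 among their genes) had intermediate C1q among the 3 named subtypes. In WT they had 524 ± 14 CPM of C1qa, 1381 ± 25 of C1qb and 578 ± 24 of C1qc (SD, n = 2). Dendritic-like cells (clusters 13 and 17) had 18.6 ± 21.5, 55.5 ± 61.8 and 38.8 ± 40.7, and the spread of the 2 WT libraries was as large as the level. The order of the 3 subtypes was the same for each chain in each genotype, with resident macrophage-like cells at the top. Cluster 8, left without a subtype name, was 4.80% ± 0.28 of WT and 9.19% ± 3.77 of Ikkb_cKO myeloid-like cells. Its C1qa was at 1123 and 994 plain CPM in WT and 0, 28.9 and 11.4 in Ikkb_cKO libraries 1, 2 and 3. Its C1qb was at 1672.5 and 1982 against 19.9, 14.5 and 19.0. Cluster 8 was not tested, as Ikkb_cKO libraries 1 and 2 had 18 and 11 of its cells.

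The chains were detected together in the same cells. In resident macrophage-like cells, 95.3% of 429 (95% exact interval 92.9 to 97.1) and 92.9% of 436 (90.1 to 95.1) WT cells had a UMI of all 3 chains. In Ikkb_cKO libraries 1, 2 and 3 these shares were 44.4% (13.7 to 78.8), 57.1% (34.02 to 78.2) and 50% (40.3 to 59.7). The intervals of the WT libraries do not reach those of Ikkb_cKO, while the cells of Ikkb_cKO were also shallower. Thinning to 1000 UMIs left 354 and 348 WT cells, and 2 of 9, 7 of 21 and 55 of 110 Ikkb_cKO cells. In Ikkb_cKO library 3, the one with more than 7 cells left, a UMI was then found in 81.8% of cells for C1qa, 87.3% for C1qb and 74.5% for C1qc. In the WT libraries these shares were 98.6% and 96.8%, 98.9% in both, and 98.9% and 97.7%. In monocyte-derived macrophage-like cells all 3 chains were found in 23.1% and 24.1% of WT cells and in 4.84%, 3.30% and 8.68% of Ikkb_cKO cells. In dendritic-like cells 2 of 91 cells of WT library 1 had all 3 chains, and none did in the other 4 libraries. These intervals cover counting error only.

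**Figure D2:**
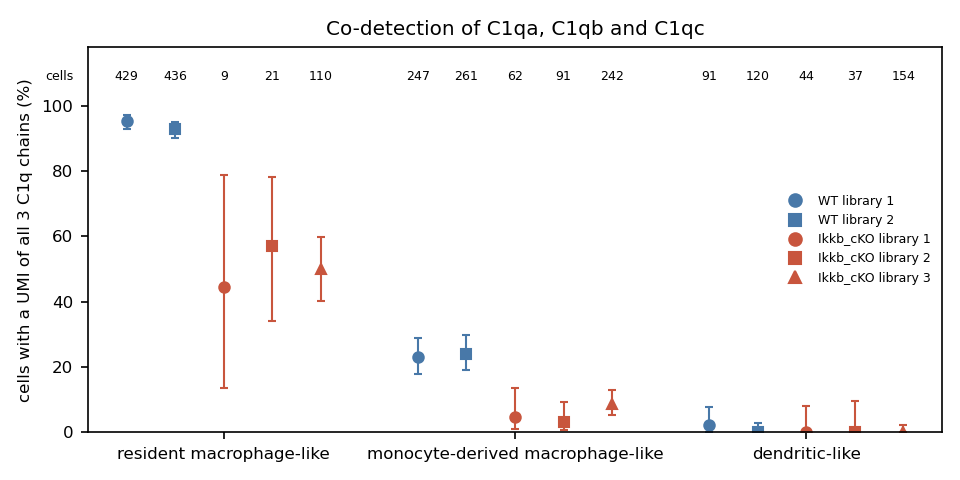
Percent of cells with a UMI of each of C1qa, C1qb and C1qc (vertical axis) by myeloid subtype and library, with 95% exact binomial intervals as bars and cell numbers on top. WT resident macrophage-like cells sit at 92.9% and 95.3%, and the 3 Ikkb_cKO libraries between 44.4% and 57.1%.

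The 3 chains did not make equal shares. C1qb made 39.5% and 40.9% of the C1q UMIs of WT resident macrophage-like cells, and 55.4% and 55.9% of those of WT monocyte-derived macrophage-like cells. C1qa made 28.4% and 28.1% in the first and 21.1% in both WT libraries of the second. In Ikkb_cKO resident macrophage-like cells C1qa made 37.7% and 38.7% (libraries 2 and 3) and C1qb 37.0% and 33.2%. The shares for Ikkb_cKO library 2 rest on 52 and 51 UMIs of C1qa and C1qb. The 9 cells of Ikkb_cKO library 1 went the other way, with 16 UMIs of C1qa, 28 of C1qb and 12 of C1qc. These shares were not tested.

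Between genotypes, C1q was lower in the whole myeloid-like class of Ikkb_cKO skin. Of the 8 members tested there 7 fell. C1ra, C2 and Serping1 among them rested mostly on WT UMIs, with 0 to 12 UMIs in each Ikkb_cKO library. A call other than lower was hardly open to these 3, so the count of 7 is no support. On the TMM-scaled CPM of the edgeR fit, C1qa was at 2145 and 1960 in WT and 98.9, 165 and 222 in Ikkb_cKO libraries 1, 2 and 3. Every WT library was above every Ikkb_cKO library, and the log2 fold change was -3.60 (SE 0.26, edgeR quasi-likelihood test, Benjamini-Hochberg adjusted p = 2.67e-05). C1qb was at 3228 and 3109 in WT and 137, 227 and 292 in Ikkb_cKO (log2 fold change -3.81, SE 0.25). C1qc, the third chain of the same molecule, went from 2428 and 2161 to 63.2, 119 and 158 (log2 fold change -4.26, SE 0.28). For both the groups did not overlap. All 3 adjusted p-values were 2.67e-05. Across the 8922 genes tested in this class 18.2% passed the threshold of 0.05, 8.7% higher and 9.47% lower. The 8 members, with C1ra, C2 and Serping1 among them, had a median log2 fold change of -2.92 and all genes tested one of 0.00.

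The make-up of the class moved with this. Resident macrophage-like cells were 52.0% ± 1.9 of myeloid-like cells in WT (SD, n = 2) and 13.4% ± 6.7 in Ikkb_cKO (n = 3). Monocyte-derived macrophage-like cells were 30.5% ± 0.3 and 49.3% ± 6.7, and dendritic-like cells 12.6% ± 1.9 and 28.2% ± 5.0. With the resident macrophage-like cluster left out, an alternative chosen after the data were seen, the log2 fold changes of the class were -3.10 for C1qa, -3.24 for C1qb and -3.77 for C1qc, and all 3 were called.

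Within monocyte-derived macrophage-like cells alone the 3 chains also fell, and these were 3 of the 5 members tested. C1qa was at 569 and 544 TMM-scaled CPM in WT and 178, 58.3 and 152 in Ikkb_cKO (log2 fold change -2.08, SE 0.26, edgeR adjusted p = 1.62e-05). C1qb was at 1491 and 1442 against 178, 210 and 382 (-2.38, SE 0.23, adjusted p = 9.94e-07). C1qc was at 634 and 593 against 89.0, 64.2 and 105 (-2.74, SE 0.23, adjusted p = 9.58e-08). The WT and Ikkb_cKO libraries did not overlap for any chain. In this subtype 16.9% of the 6139 genes tested passed, 8.1% higher and 8.8% lower. Cluster 10 alone, the larger of its 2 clusters, gave log2 fold changes of -1.80, -2.20 and -2.61, each with an edgeR adjusted p of at most 1.06e-05, where 15.4% of genes passed, 7.37% higher and 8.05% lower. In dendritic-like cells no member passed the filter on low counts.

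**Figure D3:**
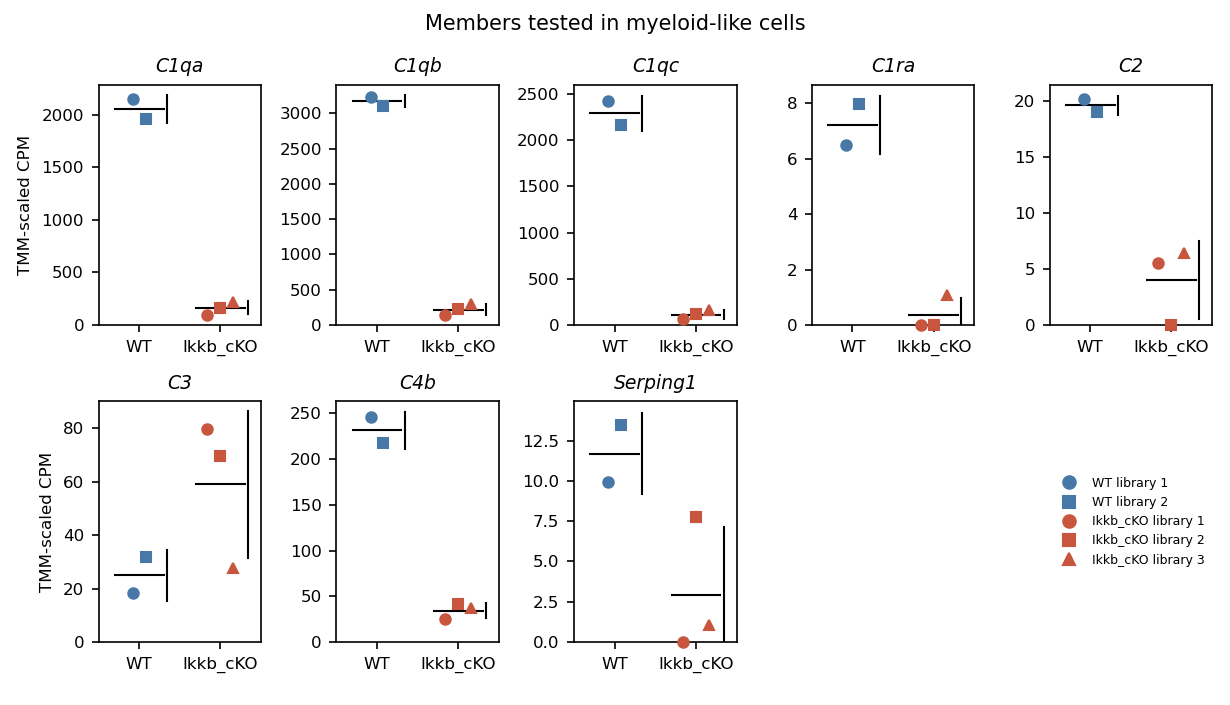
TMM-scaled CPM (vertical axis) of the 8 members tested in myeloid-like cells, with a point per library, the mean as a line and the SD as a bar. For C1qa, C1qb, C1qc and C4b the WT points stand far above all 3 Ikkb_cKO points, while for C3 the groups overlap.

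C4b, the gene of the fourth component, fell in the myeloid-like class, from 246 and 217 TMM-scaled CPM in WT to 24.7, 41.3 and 37.0 in Ikkb_cKO (log2 fold change -2.71, SE 0.23, edgeR adjusted p = 5.97e-05). In resident macrophage-like cells it was at 605 and 544 plain CPM in WT and at 507, 584 and 455 in Ikkb_cKO libraries 1, 2 and 3, so the groups overlapped. In WT monocyte-derived macrophage-like cells it was at 28.9 ± 4.2 plain CPM (SD, n = 2), and the fit there gave a log2 fold change of -1.19 (SE 0.53, edgeR adjusted p = 0.122). The share of resident macrophage-like cells given above moved with the class value.

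C2, C1ra and Serping1 also fell in myeloid-like cells, from low levels. C2 was at 20.2 and 19.0 TMM-scaled CPM in WT and at 5.49, 0 and 6.44 in Ikkb_cKO (log2 fold change -1.89, SE 0.43, edgeR adjusted p = 0.0117). In the resident macrophage-like cells C2 was at 47.1 and 49.1 plain CPM in WT and 254, 0 and 73.45 in Ikkb_cKO libraries 1, 2 and 3. The first of these rests on 2 UMIs in 9 cells, and the groups overlapped. C1ra rested on 40 WT and 2 Ikkb_cKO UMIs, and its CPM was 9.70 times as high in WT (2.52 to 82.8 by counting error at 95%, edgeR adjusted p = 0.0141). Serping1 rested on 65 and 5 UMIs (log2 fold change -2.55, SE 0.66, edgeR adjusted p = 0.0211). The 15 fibroblast markers summed to 439 and 513 CPM in WT myeloid-like cells and to 128, 226 and 140 in Ikkb_cKO, with 0 of 15 at 0 in WT and 3 to 4 in Ikkb_cKO, and moved with C1ra and Serping1. Their part in these values was not tested. DESeq2 called neither C1ra (adjusted p = 0.130), C2 (0.0595) nor Serping1 (0.145). Without WT library 1 the edgeR adjusted p was 0.101 for C2 and 0.162 for Serping1, without WT library 2 it was 0.0765 and 0.354, and without Ikkb_cKO library 3 it was 0.178 for Serping1.

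C3 was the only member tested in myeloid-like cells that did not fall. It was at 18.3 and 31.8 TMM-scaled CPM in WT and 79.6, 69.7 and 27.9 in Ikkb_cKO, with Ikkb_cKO library 3 inside the WT range (log2 fold change 0.98, SE 0.42, edgeR adjusted p = 0.135). Without that library the log2 fold change was 1.57 and the adjusted p 3.81e-04. In the monocyte-derived macrophage-like cells C3 was at 28.1 and 40.0 in WT and 222, 146 and 51.1 in Ikkb_cKO. The groups did not overlap there, and the log2 fold change of 1.62 (SE 0.59) did not pass (edgeR adjusted p = 0.0990). The C3 level of fibroblast-like cells of the same libraries, given next, was also high in Ikkb_cKO libraries 1 and 2 and low in library 3, and its part in the myeloid-like value was not tested. C1s1 had 21 UMIs in WT and 2 in Ikkb_cKO myeloid-like cells and did not pass the filter on low counts.

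In fibroblast-like cells, the class at which the Cre is aimed, C2 and C4b were higher and Serping1 and C1qb lower in Ikkb_cKO. That is 4 of the 7 members tested, where 35.7% of all 10441 genes tested passed, 17.5% higher and 18.2% lower. The share of members called can be read only against that high background. The median log2 fold change was 0.38 over the 7 members and 0.04 over all genes tested. C1qa and C1qc, with 62 and 60 UMIs in WT and 4 each in Ikkb_cKO, did not pass the filter on low counts.

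Serping1, the C1 inhibitor, was at 1512 and 1359 TMM-scaled CPM in WT and at 680, 724 and 1102 in Ikkb_cKO. All 3 Ikkb_cKO libraries were below both WT libraries, library 3 the least (log2 fold change -0.78, SE 0.22, edgeR adjusted p = 0.0316). C4b was at 136 and 132 in WT and 370, 293 and 175 in Ikkb_cKO (log2 fold change 1.05, SE 0.31, edgeR adjusted p = 0.0392). C2 was at 39.4 and 38.9 in WT and 57.5, 61.8 and 60.4 in Ikkb_cKO, the tightest of the groups (log2 fold change 0.62, SE 0.14, edgeR adjusted p = 0.0168). For each of these genes the groups did not overlap. C1qb rested on 102 WT and 3 Ikkb_cKO UMIs, and its CPM was 7.15 times as high in WT (2.38 to 35.2 by counting error at 95%, edgeR adjusted p = 0.0204). The 28 myeloid markers summed to 83.9 and 122 CPM in WT and 139, 100 and 163 in Ikkb_cKO fibroblast-like cells, with 1 to 2 markers at 0 in WT and 6 to 11 in Ikkb_cKO. In WT lymphocyte-like cells C1qb had 0 UMIs in library 1 and 4 in library 2. Thinned, a C1qb UMI was found in 0% and 2.83% of these cells and in 0.299% and 0.502% of WT fibroblast-like cells. The 2.83% is a share of 106 cells. The C1qb call thus rests on few fibroblast-like cells, and the source of their C1qb UMIs was not tested.

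These calls depended on the number and choice of libraries. Without WT library 1 or WT library 2 the calls in fibroblast-like cells were lost, and C1qb was not among the 6 members tested. The log2 fold changes were then 0.60 or 0.58 for C2, 1.04 or 1.01 for C4b and -0.73 or -0.88 for Serping1. Such a fit has 1 WT library, so it cannot tell a call carried by a single library from lost replication. Without Ikkb_cKO library 1 or 2, C2 alone was called, and C4b had log2 fold changes of 0.80 and 1.02 (edgeR adjusted p = 0.0835 and 0.0954) and Serping1 of -0.64 and -0.67 (0.0977 and 0.110).

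C3, C1s1 and C1ra did not pass in fibroblast-like cells. C3 was at 903 and 847 TMM-scaled CPM in WT and at 2757, 2641 and 540 in Ikkb_cKO. Ikkb_cKO libraries 1 and 2 stood above both WT libraries and library 3 below them (log2 fold change 1.18, SE 0.68, edgeR adjusted p = 0.228). C1s1 was at 456 and 437 in WT and 647, 656 and 443 in Ikkb_cKO, with Ikkb_cKO library 3 between the WT libraries (0.38, SE 0.19, adjusted p = 0.162). C1ra, which works with C1s1, was at 277 and 262 in WT and 278, 232 and 188 in Ikkb_cKO (-0.22, SE 0.18, adjusted p = 0.383). Without Ikkb_cKO library 3, C3 had a log2 fold change of 1.63 (edgeR adjusted p = 5.09e-17) and C1s1 of 0.55 (9.33e-07), and 6 members were called. The 2 Ikkb_cKO libraries left were alike in their clusters, and their spread may be technical. The share of all genes called in that fit is not given, so the count of 6 is no support.

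**Figure D4:**
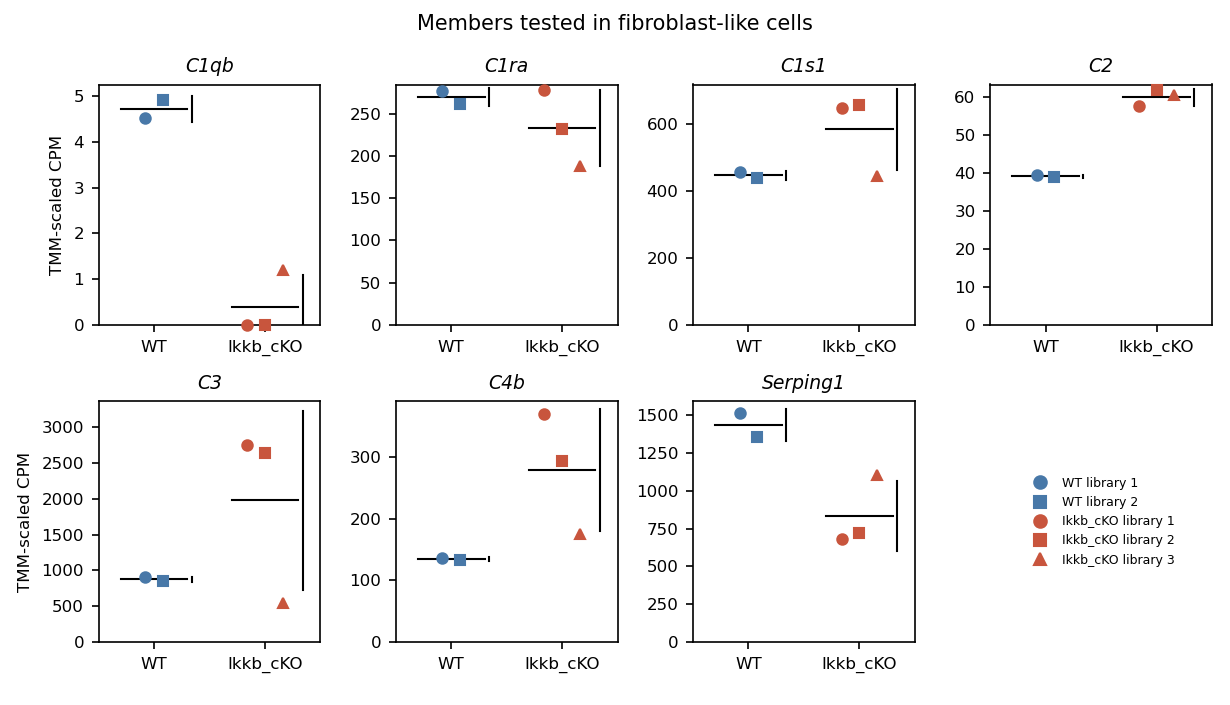
TMM-scaled CPM (vertical axis) of the 7 members tested in fibroblast-like cells, with a point per library, the mean as a line and the SD as a bar. Ikkb_cKO library 3 (triangle) lies apart from Ikkb_cKO libraries 1 and 2 for C3, C1s1, C4b and Serping1 and near them for C2.

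Different clusters held most of the fibroblast-like class in each genotype. Cluster 31, led by Ptx3, Col6a5 and Postn, held 325, 297 and 102 Ikkb_cKO cells and 1 WT cell. Cluster 6 (Clec3b, Igfbp6, Mfap5) held 229 and 279 WT cells and 5 Ikkb_cKO cells, and cluster 15 (Postn, Col1a2, Lum) 253 and 299 WT cells and 6 Ikkb_cKO cells. Cluster 0 (Col1a1, Col1a2, Mfap4) held 349 cells of Ikkb_cKO library 3 and 9 and 13 of libraries 1 and 2. With cluster 31 left out the class gave a log2 fold change of 0.92 for C2, -0.46 for Serping1 and 0.52 for C3, and C4b, at 1.37, did not pass (edgeR adjusted p = 0.0534). With clusters that had at least 5% of their cells from each genotype, C2 was at 0.29 (edgeR adjusted p = 0.425), C4b at 0.84 (0.224) and Serping1 at -0.93 (0.00245).

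C3 had the widest range over these clusters. On plain CPM, WT cells of cluster 15 had 30.6 and 24.4 in libraries 1 and 2 and those of cluster 6 had 2129 and 1873. Between them stood cluster 14 (Fabp4, Lum, Postn) with 124 and 85.6, cluster 0 with 165 and 143, cluster 2 (Fabp4, Lum, Col1a2) with 364 and 414, cluster 3 (Col1a1, Col1a2, Dcn) with 1224 and 1029, and cluster 4 (Dcn, Clec3b, Cilp) with 1362 and 1293. Cluster 5 (Dcn, Col1a1, Clec3b) had 1462 and 1519 and cluster 7 (Dcn, Serping1, Clec3b) had 1874 and 1914. WT libraries of clusters 6 and 7 overlapped, so these 2 were not ordered. Cluster 31 had 3503, 3317 and 1757 in Ikkb_cKO libraries 1, 2 and 3, of which the first 2 were above every WT cluster. A C3 UMI was found in 83.5% ± 13.8 of its thinned cells (SD, n = 3), against 75.2% ± 1.2 in WT cells of cluster 6 and 2.22% ± 0.27 in those of cluster 15 (n = 2). The low class value of C3 in Ikkb_cKO library 3 came with 349 of its 860 fibroblast-like cells in cluster 0, at 80.8 CPM, and also with lower C3 within clusters 3, 4 and 31 than in Ikkb_cKO libraries 1 and 2.

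Cluster 7 stood out for C2, C4b and Serping1. Its WT cells had 277 and 250 plain CPM of C2, where no other fibroblast-like cluster with 20 or more cells passed 56.1 in WT. They had 511 and 513 CPM of C4b, against 365 and 353 in cluster 5, the next, and 3674 and 3691 of Serping1, against 3038 and 2759 in cluster 5. In Ikkb_cKO libraries 2 and 3, with 20 cells each, cluster 7 had 365 and 371 CPM of C2, 880 and 657 of C4b, and 1888 and 2612 of Serping1. These run the same way as the class, C2 and C4b above and Serping1 below WT, and were not tested because Ikkb_cKO library 1 had 12 cells. Cluster 31 was low in Serping1, with 494, 520 and 587 CPM, and held 33.4 to 52.4 CPM of C2 and 209 to 291 of C4b.

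**Figure D5:**
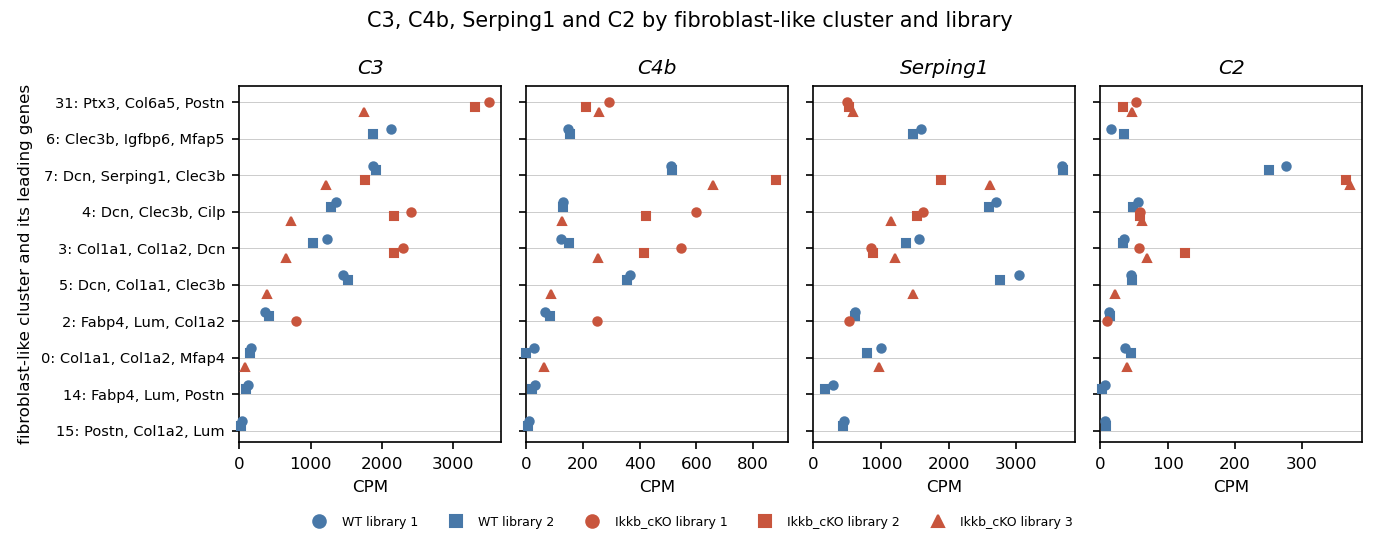
Plain CPM (horizontal axes) of C3, C4b, Serping1 and C2 in each fibroblast-like cluster (rows, with 3 leading genes) and library (points), where the library has at least 20 cells of the cluster. C3 spans from 24.4 in WT cluster 15 to 3503 in cluster 31, and cluster 7 has the highest WT levels of C2, C4b and Serping1.

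Only clusters 3 and 4 had 20 cells in every library, and in both C4b was called higher and Serping1 lower. In cluster 3 C4b was at 134 and 173 TMM-scaled CPM in WT and 581, 447 and 267 in Ikkb_cKO (log2 fold change 1.43, SE 0.32, edgeR adjusted p = 0.00671). Serping1 there was at 1736 and 1579 against 899, 944 and 1276 (-0.65, SE 0.19, adjusted p = 0.0214). Of the genes tested in cluster 3, 21.5% passed, 10.2% higher and 11.3% lower. In cluster 4 Serping1 was at 3296 and 3221 against 1938, 1771 and 1329 (-0.96, SE 0.18, edgeR adjusted p = 0.00246). C4b there was at 158 and 160 in WT and 711, 491 and 145 in Ikkb_cKO, called at a log2 fold change of 1.38 (SE 0.42, edgeR adjusted p = 0.0352) although library 3 was below WT. In cluster 4, 37.6% of genes passed, 18.7% higher and 19% lower. C3 did not pass in cluster 3 (0.49, edgeR adjusted p = 0.639) or cluster 4 (0.33, 0.592), nor did C2 in cluster 3 (1.07, 0.0632). Leaving out a library changed these 4 calls to between 2, without WT library 1 or Ikkb_cKO library 2, and 6, without Ikkb_cKO library 3.

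By the edgeR fit the genotype effect differed between the classes for 3 members, C1ra with few UMIs among them. The difference, fibroblast-like minus myeloid-like log2 fold change, was 3.64 for C4b (SE 0.32, edgeR adjusted p = 5.2e-06), 2.60 for C2 (SE 0.44, adjusted p = 4.17e-04) and 2.90 for C1ra (SE 0.71, adjusted p = 0.00792). C4b and C2 were higher in Ikkb_cKO fibroblast-like cells and lower in Ikkb_cKO myeloid-like cells. In resident macrophage-like cells alone the groups overlapped for both genes, and the part of the make-up of the class was not tested. C1ra had 17 and 23 UMIs in WT myeloid-like cells and 0, 0 and 2 in the Ikkb_cKO libraries. A negative difference was hardly open to C1ra, so its call is no support. Of 11453 genes tested for this, 12.5% passed, 7.76% with a positive and 4.76% with a negative difference. Serping1 fell in both classes, and its difference of 2.06 did not pass (SE 0.66, edgeR adjusted p = 0.0578). C3 differed by -0.19 (SE 0.37, edgeR adjusted p = 0.806). The number of members called ranged from 2 without WT library 2 to 6 without Ikkb_cKO library 2.

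Of a list of 48 other complement genes, 47 are in the matrices. In fibroblast-like cells 15 of these were tested, of which 2 rose, 5 fell and 8 did not pass, with a median log2 fold change of -0.55. In this class 35.7% of all genes tested passed, 17.5% higher and 18.2% lower, so the count is read only against that share. Cd55, which speeds the decay of convertases on the cell surface, was at 99.5 and 101 TMM-scaled CPM in WT and 445, 516 and 254 in Ikkb_cKO (log2 fold change 2.01, SE 0.31, edgeR adjusted p = 0.00533). Susd4, a complement regulator, rested on 22 UMIs in WT and was at 58.5, 64.5 and 8.41 in Ikkb_cKO (5.29, SE 1.03, adjusted p = 0.0138). C1qbp fell by 1.17 on the log2 scale, Hc, the gene of C5, by 0.99 and Cr1l, a surface regulator also called Crry, by 0.65. The other 2 that fell, C1rl and Cd59b, were at low levels and are named after their values were seen. Factor B (Cfb, 0.76, edgeR adjusted p = 0.145), clusterin (Clu, -0.68, 0.126) and properdin (Cfp, 0.15, 0.822) did not pass. None of the 8 receptor genes on the list passed the filter on low counts in this class.

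In myeloid-like cells 17 of the listed genes were tested, of which 10 fell, 1 rose and 6 did not pass, with a median log2 fold change of -1.47. Of all genes tested in this class 9.47% were lower and 8.7% higher. Cfd, with 35 UMIs in WT and 0 in Ikkb_cKO, passed the filter on low counts through WT alone. A call other than lower was hardly open to such a gene, so the count of 10 and the median are no support. The receptors of the C3a and C5a fragments fell: C3ar1 was at 207 and 194 TMM-scaled CPM in WT and 27.5, 69.7 and 75.6 in Ikkb_cKO (log2 fold change -1.70, SE 0.29, edgeR adjusted p = 0.00292), and C5ar1 at 379 and 332 against 43.9, 74.9 and 93.3 (-2.24, SE 0.25, adjusted p = 2.78e-04). Itgax, a chain of complement receptor CR4, was at 30.1 and 34.6 against 68.7, 64.6 and 89.6 (1.26, SE 0.23, adjusted p = 0.00427). Of the other genes, ficolin A (Fcna) had a log2 fold change of -3.46, Colec12 of -2.83, Cfb of -2.46, Cd55 of -2.16, C6 of -1.47 and Cfp of -0.98. Cfd, the gene of factor D, had 35 UMIs in WT and 0 in Ikkb_cKO, at least 5.66-fold lower against a floor of 3 counts over the group. Cd55 rose in fibroblast-like and fell in myeloid-like cells, and the difference of 3.97 passed (SE 0.45, edgeR adjusted p = 1.4e-05). Within monocyte-derived macrophage-like cells 2 of 9 listed genes tested fell, Cfp (-0.76, edgeR adjusted p = 0.00850) and C5ar1 (-0.86, 0.0384), and C3ar1 did not pass (-0.43, 0.288). Of all genes tested in that subtype 16.9% passed, 8.8% lower, so 2 of 9 is near the background.

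The genes whose levels were most like those of members were sought among 6222 genes over 85 sums of a cluster and library, which share libraries and depth, as a description. For C1qa these were Pf4 (Pearson r = 0.95), C3ar1 (0.94), C5ar1 (0.94), F13a1 (0.90) and Ms4a7 (0.90), of which Pf4 and Ms4a7 were also markers used to name the cells. The C1q chains had r between 0.97 and 0.98 with each other. For C3 they were Gfpt2 (0.91), Dpep1 (0.90), Ptx3 (0.90), Nova1 (0.90) and Dpt (0.90). For Serping1 they were Pcolce (0.97), Rarres2 (0.97), Ndn (0.96), Sdc2 (0.96) and Tnxb (0.96), and C1s1 had r = 0.96 with it. C1ra and C1s1 had r = 0.97 with each other.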

How the data were processed

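Cells of 5 libraries were profiled. The values deposited are whole UMI counts for each gene in each barcode. The submitters' processing notes name Cell Ranger 1.3.0 and the build mm10, and the file headers give software version 3.0.1. The 9 members, the marker and gene lists, and the tests were chosen with earlier results of these data known.

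Barcodes under 300 genes or over 10% mitochondrial UMIs were dropped. The barcodes with the highest Scrublet scores, equal in number to an expected doublet rate of 0.008 per 1000 cells, were removed, because Scrublet's own threshold marked too few. Cells were clustered in scanpy 1.11.5 (2000 variable genes without the complement genes, 30 components, 15 neighbours, Leiden resolution 1.0) into 33 clusters, of which 30 were named by at least 3 markers among their 50 leading genes. The 176 cells of the others stayed without a name.

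For each class, cluster or subtype, counts were added up within a library, with at least 20 cells in every library. The sums were filtered with filterByExpr, scaled by TMM and tested with edgeR 4.0.16 (robust quasi-likelihood test, Benjamini-Hochberg adjustment over all genes of a fit, threshold 0.05; R 4.3.3). The difference between classes was tested by a class by genotype term with library as a block. Values called plain CPM are the summed UMIs scaled to a common library total with no TMM. Because nothing says that libraries of a group are independent, p-values reflect only how these libraries vary, possibly for technical reasons. The edgeR step was tested on simulated data. Alternatives were DESeq2 1.42.0, other cell, count and doublet filters, other Leiden resolutions, equal cell numbers, a replicate block and leaving out each library.

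Named were the 9 members, the listed pathway genes that passed in fibroblast-like or myeloid-like cells at an average log2 CPM of 4 or more, C3ar1, Cfb, Cfd, Cfp, Clu and Cd55 wherever tested, and the 5 genes most like C1qa, C3 and Serping1 (log2(CPM + 10), genes reaching 100 CPM). 1 further gene of the rule is not reported here. Promoters came from RefSeq and gene positions from GENCODE.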

Additional observations from a re-analysis of the deposited data

Results flagged for a closer look

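For 3 of the 9 members the genotype effect differed between fibroblast-like and myeloid-like cells by the class by genotype term of the edgeR fit. Of all 11453 genes tested for this, 12.5% passed, 7.76% with a positive and 4.76% with a negative difference. The difference of the log2 fold changes was 3.64 for C4b, 2.6 for C2 and 2.9 for C1ra. C4b and C2 were higher in fibroblast-like and lower in myeloid-like cells of Ikkb_cKO. DESeq2 did not call C2 in myeloid-like cells. In resident macrophage-like cells alone the groups overlapped for both genes. These cells were 52.0% of myeloid-like cells in WT and 13.4% in Ikkb_cKO, and the part of this share was not tested. C1ra did not pass in fibroblast-like cells, and its myeloid-like level rests on 40 UMIs in WT and 2 in Ikkb_cKO.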

How the results depend on the processing

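No direction of a member called in fibroblast-like or myeloid-like cells turned under the alternatives run. In fibroblast-like cells, where 4 members were called, 2 were called with no filter on low counts, 1 with Ikkb_cKO libraries 1 and 2 summed, 2 in clusters with at least 5% of their cells from each genotype, and 0 to 6 when each library was left out. In myeloid-like cells, where 7 were called, DESeq2 called 4, a minimum of 10 UMIs in every library 3 (4 tested), equal cell numbers 4 (5 tested), the class without the resident macrophage-like cluster 4 (5 tested), and leaving out a library 4 to 7. C1qa, C1qb and C1qc were called in all of the 18 alternatives that tested each in myeloid-like cells, with log2 fold changes from -4.64 to -3.10. Leaving out a library gave 3 to 6 calls within myeloid subtypes, 2 to 6 within fibroblast clusters and 2 to 6 for the difference between classes. Summing libraries and leaving out clusters were chosen after the data were seen. WT and Ikkb_cKO share replicate numbers 1 and 2, but libraries of the same number did not deviate together (correlation -0.017 in fibroblast-like and -0.049 in myeloid-like cells). With the number as a replicate block, which leaves out Ikkb_cKO library 3, 6 members were called in fibroblast-like cells (4 higher) and 6 in myeloid-like cells (5 lower). Depth limits members with few UMIs, such as C1ra and C1s1 in myeloid-like cells. The share of all genes called in each alternative is not given here, so the counts of members called cannot be weighed against it.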
